A study of Rattus norvegicus with 16 samples.

Results

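Anxa1, Lyz2 and a pair of genes known here only by their Ensembl identifiers, ENSRNOG00000020871 and ENSRNOG00000023334, were followed across the mRNA libraries of rat testicular germ cells (GCs). These 4 genes, of 26560 listed in the mRNA files, were chosen by their measured values, because their level was lower in GCs from rats on a high fat diet (HFD) than in GCs from rats on a control diet (CD) in these same libraries. Their levels are therefore given as a description, and no test of their diet difference is used as evidence.

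The study asked whether a paternal HFD alters the RNA of male GCs. Male Sprague-Dawley rats received an HFD or a CD from weaning to 19 weeks of age, with 40% and 10% of calories from fat by the labels, while the paper states a higher share for the HFD. Animals of both groups carried a transgene that marks GCs with eGFP, whose promoter is not given in the sources used here, and cells of the dissociated testis were sorted by flow cytometry on eGFP alone, so that GC stages were not separated. There were 4 mRNA and 4 small RNA libraries per diet. The labels number the libraries as replicates, and p-values measure the spread between these libraries.

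Annexin A1 is a calcium-dependent, phospholipid-binding protein that is induced by glucocorticoids and limits inflammation, and it is abundant in myeloid and many epithelial cells. Lysozyme is a secreted enzyme that cleaves bacterial cell wall peptidoglycan, and in rodents Lyz2 encodes the form of macrophages and other myeloid cells. The testis holds resident macrophages between the seminiferous tubules, in which GCs develop.

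The files place Anxa1 (ENSRNOG00000017469) on the minus strand of chromosome 1 at 245192877 to 245208910 of the rn5 genome, with 13 exons covering 1402 bases. Lyz2 (ENSRNOG00000005825) lies on the minus strand of chromosome 7 at 60337951 to 60343246, with 5 exons covering 1345 bases. ENSRNOG00000020871 lies on the minus strand of chromosome 1 at 85328915 to 85361198, and its 33 exons cover 5157 bases. ENSRNOG00000023334 lies on the plus strand of chromosome 11 at 71194913 to 71226980, and its 17 exons cover 7087 bases. No other annotated gene overlapped any of the 4. Of the 33 exons of ENSRNOG00000020871, 26 have a length that is a multiple of 3. The study uses the name Lyc2 for the lysozyme gene. RefSeq lists Lyc2 on the plus strand and Lyz2 on the minus strand of chromosome 7, and the deposited gene is on the minus strand, so that the name Lyz2 is used here.

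Promoter windows of both named genes run from 250 bases before to 50 bases from the transcription start. They are shown because both genes were chosen as lower on the HFD and because the lysozyme genes have a close copy. RefSeq sequences of the GRCr8 genome matched 2 of the 4 genes. In the Anxa1 window, at chr1:227303683-227303982 on the minus strand, capitals mark TATAAA and GAGGAA.
Anxa1: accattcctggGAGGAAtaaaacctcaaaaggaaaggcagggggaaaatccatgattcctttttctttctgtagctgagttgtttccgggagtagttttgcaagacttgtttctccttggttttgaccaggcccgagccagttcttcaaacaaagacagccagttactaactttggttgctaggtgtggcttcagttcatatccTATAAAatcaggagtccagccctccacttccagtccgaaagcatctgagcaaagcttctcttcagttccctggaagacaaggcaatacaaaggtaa
In the windows of Lyz2, at chr7:54797962-54798261 on the minus strand, and of its neighbour Lyc2, at chr7:54772759-54773058 on the plus strand, capitals mark the run that both share up to the end of the window.
Lyz2: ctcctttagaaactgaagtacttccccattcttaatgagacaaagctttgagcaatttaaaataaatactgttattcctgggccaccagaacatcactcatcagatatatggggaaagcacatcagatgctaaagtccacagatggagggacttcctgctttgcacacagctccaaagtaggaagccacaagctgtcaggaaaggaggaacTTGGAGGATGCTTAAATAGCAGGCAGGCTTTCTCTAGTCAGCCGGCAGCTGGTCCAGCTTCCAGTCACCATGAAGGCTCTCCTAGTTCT
Lyc2: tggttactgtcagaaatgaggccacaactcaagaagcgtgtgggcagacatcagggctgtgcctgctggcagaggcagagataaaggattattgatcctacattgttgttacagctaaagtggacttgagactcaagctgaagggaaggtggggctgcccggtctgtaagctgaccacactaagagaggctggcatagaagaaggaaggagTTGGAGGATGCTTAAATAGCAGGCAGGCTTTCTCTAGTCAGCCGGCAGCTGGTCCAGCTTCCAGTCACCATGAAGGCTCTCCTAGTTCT
The shared run was 89 bases long and included all 50 bases from the start and the 39 bases before it. It was found in 2 of 33469 RefSeq promoter windows, those of Lyz2 and Lyc2. Outside that run, 45 of the other 211 bases were the same at the same position. The files count uniquely aligned reads, and a read that lies within sequence common to both copies has no unique place.

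On either strand, TATAAA was found once in the Anxa1 window, at positions -46 to -41 counted from the start, and in 14.2% of all windows. The Lyz2 window did not hold these letters. GAGGAA, the core bound by ETS factors of myeloid cells such as PU.1, was found once in Anxa1, at -239 to -234, and once in Lyz2, at -46 to -41. The same letters were in 27.6% of all windows. AGAACA, a glucocorticoid receptor half-site, was found once in Lyz2 and in 20.7% of windows, and CCAAT and GGGCGG (37.5% and 33.1% of windows) were in neither gene's window. These matches describe the letters of the windows and are not binding sites.

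Total counts assigned to genes ranged from 38633043 to 62038805 per mRNA library and did not differ detectably between diets, with means of 47610091 (HFD) and 45778366 (CD) (two-sided exact permutation test, p = 0.771, smallest possible p = 0.0286, n = 4 per diet). Of all listed genes, 19446 averaged 1 count or more per library, all 4 genes among them. Levels are given as CPM (a gene's counts divided by the library total and multiplied by 1000000) after TMM scaling. Between genes they are given as CPM per kilobase of exon (RPKM). TMM scaling adjusts each library total by 1 factor, from 0.856 for CD replicate 1 to 1.09 for CD replicate 4. Differences in composition between libraries can remain after it. CD replicates 1 and 2 clustered apart from the other 6 libraries. The files pair no identifier with a symbol, so that marker genes of GCs, macrophages, Sertoli, Leydig or peritubular cells could not be looked up. The part of other cells in the levels was therefore not tested, and in bulk libraries fewer cells of a type and less RNA per cell cannot be told apart. The paper checked the purity of its sorted GCs by qPCR of GC, Sertoli and Leydig cell genes. It names no macrophage gene in that check.

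All 4 genes were lower in every HFD library than in every CD library on the TMM scale. This held for 203 of 19446 genes, or 1.04%, while 209 genes were higher in every HFD library, and it is the choice itself that placed the 4 genes among the 203. In raw counts it held for 3 of the 4, against 57 genes or 0.293%. The exception was ENSRNOG00000020871, with 107 counts in HFD replicate 2 and 97 in CD replicate 2, libraries with 62038805 and 38633043 counts in all. All 4 were also without overlap after scaling to the total count, where 155 genes (0.797%) were below and 193 above, and by DESeq2 size factors, where 211 (1.09%) were below.

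Anxa1 was counted 4, 9, 2 and 0 times in HFD replicates 1 to 4, and 29, 15, 18 and 21 times in CD replicates 1 to 4. Every library thus held few reads of this gene, and HFD replicate 4 held none. Its 0 counts of 45107939 allow up to 3 counts, or 0.0665 CPM of the total count. The scaled level was 0.0694 ± 0.0589 CPM on the HFD and 0.476 ± 0.159 CPM on the CD (mean ± SD, n = 4), so that the HFD mean was 14.6% of the CD mean. The highest HFD library (replicate 2, 0.134 CPM) and the lowest CD library (replicate 3, 0.335 CPM) were 2.50-fold apart. Among the 88 genes with a mean count in the range of the 4 genes and no overlap, 0 had a wider gap. The edgeR fit gave a log2 ratio of HFD over CD of -2.65 with a standard error (SE) of 0.587. Without HFD replicate 2 the log2 ratio was -3.28, and without HFD replicate 4 it was -2.27.

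ENSRNOG00000023334, like Anxa1, was counted in small numbers. There were 4, 10, 8 and 4 counts on the HFD, and 32, 24, 18 and 30 counts on the CD. Its level was 0.129 ± 0.0440 CPM on the HFD and 0.604 ± 0.189 CPM on the CD (n = 4), so that the HFD mean was 21.4% of the CD mean. HFD replicate 3, at 0.181 CPM, and CD replicate 3, at 0.335 CPM, came nearest to each other. The fitted log2 ratio was -2.18 (SE 0.390). What this gene encodes is not stated in the files.

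Lyz2 was counted 58, 86, 80 and 74 times on the HFD, and 168, 188, 100 and 202 times on the CD. The HFD libraries lay close together, whereas CD replicate 3 stood well below the other CD libraries. The scaled level was 1.54 ± 0.232 CPM on the HFD and 3.86 ± 1.41 CPM on the CD (n = 4), an HFD mean of 39.7% of the CD mean. The groups were separated only narrowly, since HFD replicate 3 was at 1.81 CPM and CD replicate 3 at 1.86 CPM, a ratio of 1.03. Scaled to the total count alone, these libraries were also at 1.81 and 1.86 CPM, and the 95% exact (Clopper-Pearson) intervals, of 1.43 to 2.25 and 1.51 to 2.26, overlapped over most of their length. The 2 libraries cannot be told apart at this depth. The fitted log2 ratio was -1.33 (SE 0.276), and without CD replicate 3 it was -1.56 (SE 0.175).

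ENSRNOG00000020871 was counted 59, 107, 74 and 87 times on the HFD, and 110, 97, 142 and 142 times on the CD. After scaling, its level was 1.66 ± 0.191 CPM on the HFD and 2.76 ± 0.208 CPM on the CD (n = 4), an HFD mean of 60.0% of the CD mean. Relative to its level, it had the smallest difference of the 4 genes and the smallest spread of log2 CPM within a diet. CD replicates 1, 2 and 3 were at 2.67, 2.66 and 2.64 CPM, and CD replicate 4 was at 3.07 CPM. The fitted log2 ratio was -0.74 (SE 0.152).

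**Figure D1:**
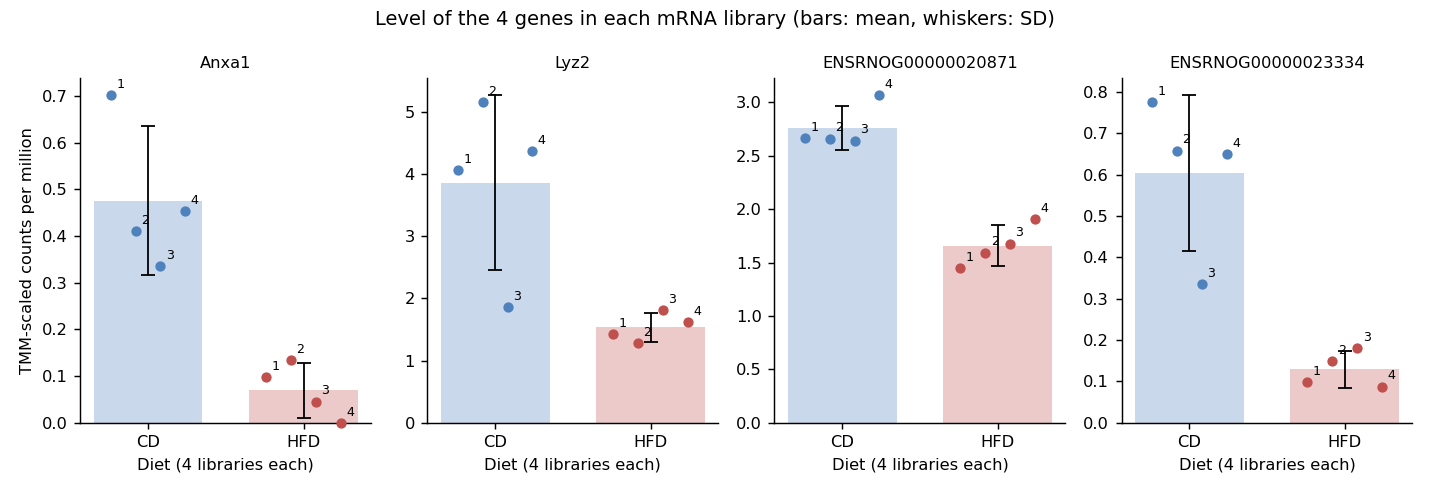
TMM-scaled CPM (y axis, from 0, with its own range in each panel) of the 4 genes in the CD and HFD libraries (x axis); points are libraries with their replicate number, bars are means and whiskers SDs, n = 4. The HFD points lie below the CD points in each panel, with CD replicate 3 of Lyz2, at 1.86 CPM, nearly level with HFD replicate 3, at 1.81 CPM.

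The edge of the rule ran through closely spaced values. Of 4930 genes with a mean count in the range of the 4 genes, 88 had every HFD library below every CD library and 29 had every one above, where over all genes these were 203 and 209. The narrowest gap that met the rule was a ratio of 1.0038 between the lowest CD and the highest HFD library, and the nearest that missed it was 0.9996. The median ratio of the 88 genes was 1.10. Lyz2, at 1.03, had a narrower gap than 70 of them, whereas ENSRNOG00000020871, at 1.39, was exceeded by 8 and ENSRNOG00000023334, at 1.85, by 3. These places use the values by which the 4 genes were chosen.

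The counting error behind these levels differed between the genes. For each gene the nearest HFD and CD libraries by CPM of the total count had 95% exact intervals that overlapped. These intervals were taken on that scale, without TMM factors, and cover counting error only. Of the 16 pairs of an HFD and a CD library, the intervals were separate in 12 pairs for Anxa1, 12 for Lyz2, 12 for ENSRNOG00000023334 and 8 for ENSRNOG00000020871. The coefficient of variation of Lyz2 among CD libraries was 36.5%, against 7.80% from counting alone, so that these libraries differed by more than their sampling. For ENSRNOG00000020871 it was 7.52% among CD libraries on the TMM scale, against 9.03% from counting. This closeness depended on the scaling. The CD libraries ran from 2.64 to 3.07 CPM after TMM, and from 2.28 to 3.34 CPM of the total count. Anxa1 varied by 84.9% among HFD libraries, where counting alone gave 51.6%.

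Per kilobase of exon, Lyz2 had the highest level of the 4 genes on either diet, at 1.14 ± 0.173 RPKM on the HFD and 2.87 ± 1.05 RPKM on the CD. ENSRNOG00000020871 followed at 0.321 ± 0.0370 and 0.535 ± 0.0402 RPKM. Anxa1 was at 0.0495 ± 0.0420 and 0.339 ± 0.113 RPKM, and ENSRNOG00000023334 was lowest at 0.0182 ± 0.00621 and 0.0853 ± 0.0266 RPKM. On the CD this order held in each of the 4 libraries. On the HFD, Anxa1 and ENSRNOG00000023334 did not differ beyond their spread, since the order held in 3 of 4 libraries and was turned in replicate 4. Set against all genes in these libraries, Lyz2 on the CD lay above 56.9% of the 19446 by RPKM, ENSRNOG00000020871 above 36.9%, Anxa1 above 30.8% and ENSRNOG00000023334 above 14.6%. On the HFD the shares were 46.4%, 30.9%, 10.2% and 3.34%.

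The size of the log2 ratio depended on how low counts were treated. DESeq2 without shrinkage gave -2.72, -1.34, -0.75 and -2.21 for Anxa1, Lyz2, ENSRNOG00000020871 and ENSRNOG00000023334. DESeq2 with shrunken fold changes, the test named in the study's methods, pulled all of these towards 0. It gave -0.47 for Anxa1, -0.61 for Lyz2, -0.55 for ENSRNOG00000020871 and -0.57 for ENSRNOG00000023334. The shrinkage turned the order, and Anxa1, with the largest ratio before it, had the smallest after it.

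**Figure D2:**
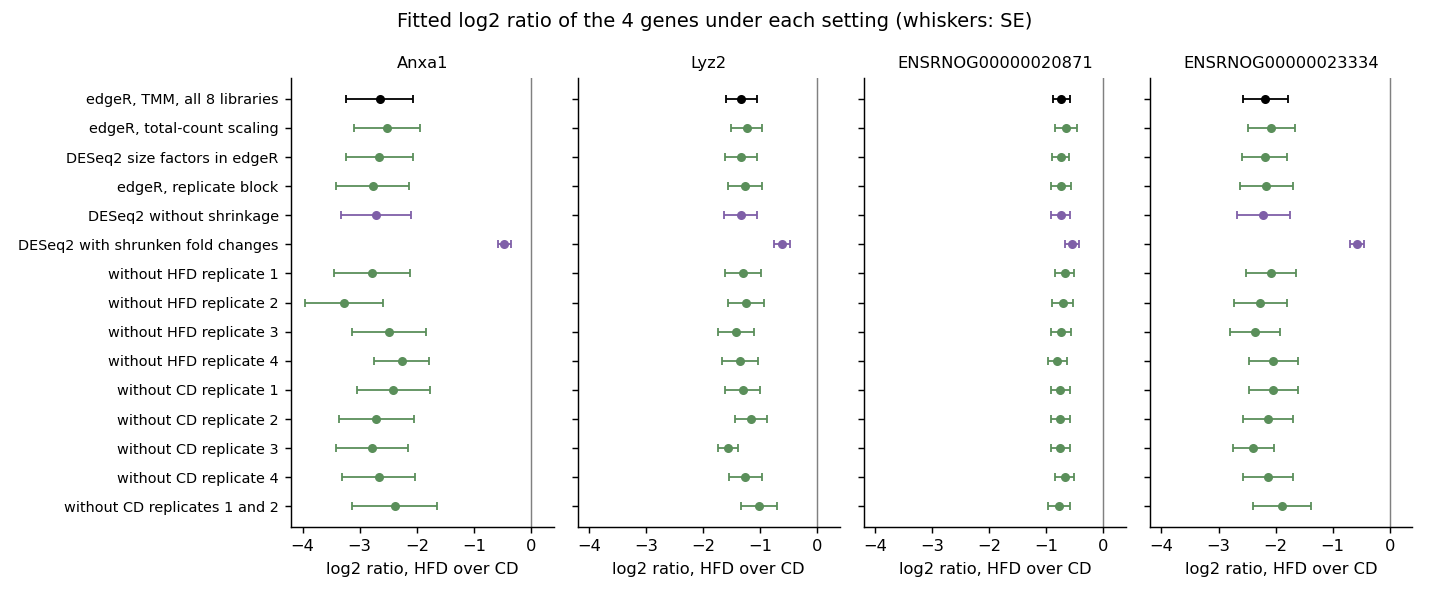
Fitted log2 ratio of HFD over CD (x axis) of the 4 genes under each setting (rows), with whiskers for 1 SE; black is the edgeR fit to all 8 libraries, green its alternatives and purple DESeq2. All values are below 0, which the choice of the genes made likely. They run from -3.28 for Anxa1 without HFD replicate 2 to -0.47 for Anxa1 with shrunken fold changes.

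Across all 19446 genes, edgeR's quasi-likelihood test called 0 genes between the diets at an adjusted p under 0.05, or 0%. At an unadjusted p under 0.05 there were 725 genes, 490 of them lower on the HFD, and with total-count scaling there were 582, 320 of them lower. Leaving out 1 library gave 412 (without CD replicate 1) to 3379 (without CD replicate 4, 1941 of them lower). DESeq2 called 7 genes without shrinkage and 6 with it, all lower on the HFD. The 4 genes were among the 7 (0.036% of all genes), and 3 of them, without Anxa1, were among the 6 (0.0309% of all genes). These calls come from the libraries that chose the genes and are no further evidence on them. With shrunken DESeq2 over protein-coding genes alone, the paper called collagen3a1, gelsolin and decorin, and so neither Anxa1 nor Lyz2. In the paper's qPCR, each of its called genes was also lower on the HFD, but the differences did not reach significance.

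On the TMM scale, the 4 genes shared the lowest CD library, replicate 3, and differed in the highest. CD replicate 1 was highest for Anxa1 and ENSRNOG00000023334, CD replicate 2 for Lyz2 and CD replicate 4 for ENSRNOG00000020871. CD replicate 3 fell below the CD mean of log2 CPM by 0.41 for Anxa1, by 0.94 for Lyz2, by 0.06 for ENSRNOG00000020871 and by 0.72 for ENSRNOG00000023334. For ENSRNOG00000020871 the place of replicate 3 depended on the scaling. By CPM of the total count, its lowest CD library was replicate 1 at 2.28 CPM, and replicate 3 was at 2.64 CPM. Among the HFD libraries, replicate 4 was lowest for Anxa1 and ENSRNOG00000023334 but highest for ENSRNOG00000020871.

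Over the 8 libraries, log2 CPM of the 4 genes correlated with Pearson's r between 0.74 (Anxa1 and Lyz2) and 0.92 (Lyz2 and ENSRNOG00000023334), as a description of values that share the diet difference for which they were chosen. With the diet means removed, r was 0.74 for Lyz2 and ENSRNOG00000023334, 0.49 for Anxa1 and ENSRNOG00000023334, 0.0043 for Anxa1 and Lyz2, and -0.67 for Anxa1 and ENSRNOG00000020871. All points share library depth and scaling. Within a diet, a library high in one of these genes was thus not in general high in the others.

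**Figure D3:**
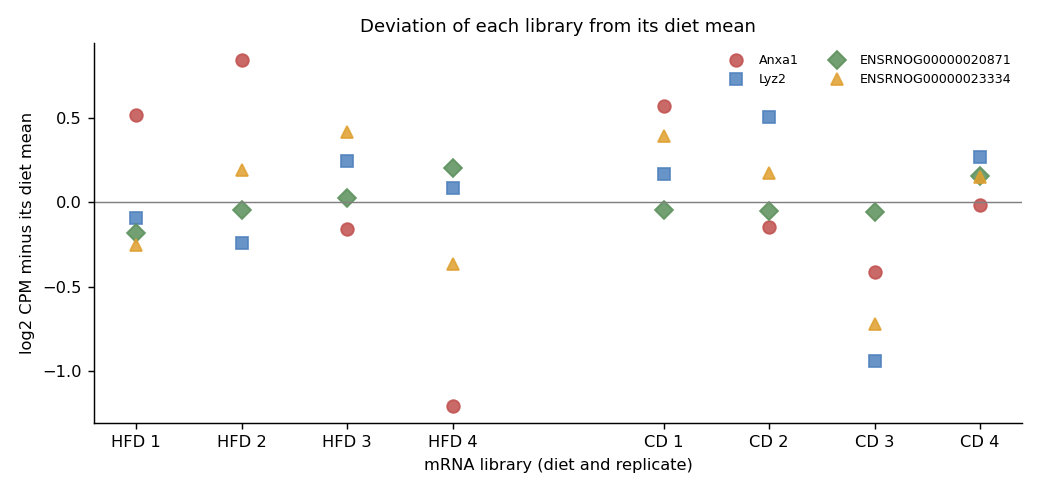
log2 CPM of each gene minus its mean over the 4 libraries of the same diet (y axis) in each mRNA library (x axis), one symbol per gene. Anxa1 in HFD replicate 4 is at -1.21 from its diet mean. On this TMM scale CD replicate 3 is the lowest CD library for all 4 genes, for ENSRNOG00000020871 only narrowly.

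Other genes were closer in pattern than the 4 were to each other, as a search over many genes with few libraries makes likely. Among 15256 other genes averaging 10 counts or more, the log2 CPM of ENSRNOG00000007237 was most like that of Anxa1 (r = 0.98 over 8 libraries), ENSRNOG00000011455 most like that of Lyz2 (r = 0.98), ENSRNOG00000004554 most like that of ENSRNOG00000020871 (r = 0.98) and ENSRNOG00000020679 most like that of ENSRNOG00000023334 (r = 0.97). In these rankings the best placed of the 4 was ENSRNOG00000023334, at rank 8 for Anxa1, 10 for Lyz2 and 20 for ENSRNOG00000020871. By deviations from the diet means, the other 3 genes ranked between 270 and 15002.

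The genes on either side of each of the 4 were not used to choose them, and their diet difference was tested in the edgeR fit across all genes. ENSRNOG00000034139, on the plus strand 12359 bases from Lyz2 and the nearest gene on that side, was counted 14, 18, 32 and 29 times on the HFD, and 27, 24, 28 and 20 times on the CD. The groups overlapped, and the log2 ratio was -0.21 (SE 0.353, adjusted p = 0.898). Per kilobase, its CD mean of 0.401 RPKM was below the 2.87 RPKM of Lyz2. The files give no name for it, and whether it is the plus-strand lysozyme gene of RefSeq was not settled here. On the other side of Lyz2, 44441 bases away, ENSRNOG00000005927 had a log2 ratio of -0.25 (SE 0.166, adjusted p = 0.83).

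ENSRNOG00000020867 and ENSRNOG00000020882, 26360 and 4803 bases from ENSRNOG00000020871, had log2 ratios of -0.01 (SE 0.107, adjusted p = 0.983) and 0.12 (SE 0.153, adjusted p = 0.863). ENSRNOG00000002241, whose end lies 5174 bases from ENSRNOG00000023334 on the opposite strand, was at 6.45 ± 0.145 CPM on the HFD and 5.08 ± 1.14 CPM on the CD. Its log2 ratio was 0.34 (SE 0.154), with an unadjusted p of 0.0473 and an adjusted p of 0.83 in edgeR. The gene on the other side, ENSRNOG00000046650, had 0 to 8 counts per library and a log2 ratio of 1.70 (SE 0.895, adjusted p = 0.83), which was 2.62 without CD replicate 3 and 0.88 without CD replicates 1 and 2. Both genes next to Anxa1, 316841 and 133789 bases away, had 0 counts in every library. None of the 6 neighbours tested by edgeR passed the threshold.

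**Figure D4:**
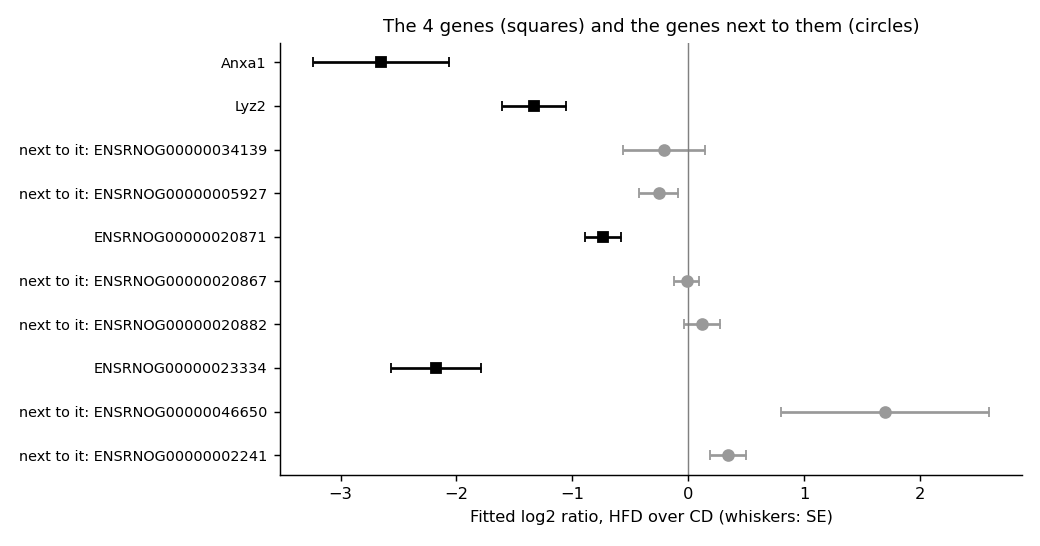
Fitted log2 ratio of HFD over CD (x axis) of the 4 genes (squares) and of the 6 neighbouring genes that averaged 1 count or more per library (circles), with whiskers for 1 SE. The squares lie between -2.65 and -0.74, and the circles between -0.25 and 1.70.

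The small RNA libraries, which had no part in the choice of the genes, were counted over piRNA, miRNA and repeat entries of the rn5 genome, with piRNA totals of 891575 to 1240080 counts per library. No miRNA entry lay inside any of the 4 genes, and piRNA entries lay inside ENSRNOG00000023334 alone. These were 11 entries with 14 copies there, all in introns, and each entry was annotated at between 1409 and 33412 places in the genome, so that its count was not that of this gene's copy. Of the 11 entries, 8 averaged 1 count or more per library. Their log2 ratios of HFD over CD lay between -0.79 and 0.38, and the smallest adjusted p was 0.996 in edgeR over 7818 piRNA entries, with 0 of the 8 entries at an unadjusted p under 0.05, against 234 (2.99%) of all entries tested. At an adjusted p under 0.05 edgeR called 0 of the entries inside the gene and 0% of all entries, and without a filter or with the replicate block it called 0 inside the gene and 0.264% or 0.102% of all. Copies of annotated repeats numbered 7 in Anxa1, 5 in Lyz2, 58 in ENSRNOG00000020871 and 43 in ENSRNOG00000023334. They touched exons only in ENSRNOG00000023334, over 145 bases or 2.05% of its exon length, so that the exons of Anxa1, Lyz2 and ENSRNOG00000020871 hold no annotated repeat.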

How the data were processed

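The deposited values are unnormalized counts of reads with a unique alignment, and everything given here was computed from these counts. The authors aligned mRNA reads to rn5 with STAR 2.3.0 and counted them over Ensembl genes on the reverse strand with featureCounts, per the file headers and the submitters' processing notes. Diet and replicate number were taken from the sample labels. For the small RNA counts of CD replicate 4, the column header carries another library number than the file, and the record of each sample's files was followed. Genes averaging 1 count or more over the 8 mRNA libraries were kept. Log2 ratios came from edgeR 4.0.16 (TMM, quasi-likelihood fit, Benjamini-Hochberg adjustment over all genes) in R 4.3.3, with DESeq2 1.42.0 as an alternative, and the fits were tested on simulated data. For correlations, log2 CPM had a prior count of 2. Counting intervals used scipy 1.17.1.

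The 4 genes and the lists were chosen with earlier results of these data known. Named genes were these 4, the genes next to them and those most like them in pattern. Of these, the single most similar gene per member is printed. The reference tables matched 0 of 26560 gene identifiers, so lists of marker and pathway genes were not run. Alternatives covered scaling, tool, filter, replicate block and leaving out libraries.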

Additional observations from a re-analysis of the deposited data

Results flagged for a closer look

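Of 20 groups of 4 libraries looked at, for the 4 genes and the 6 neighbouring genes tested, 1 held a library far from the other 3. This was ENSRNOG00000020871 on the CD, where replicate 4 was at 3.07 CPM and the other libraries at 2.64 to 2.67 CPM, so that the gap was 0.946 of the whole range, above Dixon's critical value for groups of this size. The flag was looked for on the TMM scale and depends on it. By CPM of the total count, CD replicates 1 to 4 were at 2.28, 2.51, 2.64 and 3.34 CPM, with replicates 1 to 3 less close together. Chance alone flags about 1 in 20 such groups. Without CD replicate 4 the log2 ratio of this gene was -0.68.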

How the results depend on the processing

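Each of the 4 genes stayed lower on the HFD in all 14 alternatives. They were chosen for lying lower in these libraries, so that leaving out libraries could hardly turn the direction. This direction is therefore no further evidence. Leaving out 1 library at a time gave log2 ratios of -3.28 to -2.27 for Anxa1, -1.56 to -1.16 for Lyz2, -0.81 to -0.68 for ENSRNOG00000020871 and -2.39 to -2.04 for ENSRNOG00000023334. Shrunken DESeq2 fold changes moved the values by more than the spread between libraries, to -0.47, -0.61, -0.55 and -0.57 in the same order, by construction of the prior. Without CD replicates 1 and 2, chosen after seeing the data, they were -2.39, -1.02, -0.78 and -1.89.

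The count of genes called by edgeR, 0, became 7 with DESeq2 without shrinkage and 6 with it, and ranged from 0 to 1 with 1 library left out. At an unadjusted p under 0.05, the 725 genes became 452 and 449 without HFD replicates 1 and 2, 412 and 462 without CD replicates 1 and 2, and 3379 without CD replicate 4. The 1 call came without HFD replicate 4 and was none of the 4 genes. The count of genes with every HFD library below every CD library, 203, was 57 in raw counts. It was 935 without CD replicates 1 and 2, where fewer libraries must be exceeded. The 4 genes were among the 935, which their choice all but fixed, since leaving out libraries cannot by itself add an overlap.

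With the replicate block, the log2 ratios were -2.78, -1.26, -0.74 and -2.16, with 0 genes called and 322 at an unadjusted p under 0.05 in place of 725. Same-numbered libraries correlated with r of -0.20 to 0.03 in their deviations from the diet means, so that no pairing by number was seen. With so few libraries this cannot exclude a pairing, and the labels do not state one.

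Some neighbours, none called, changed sign. ENSRNOG00000034139 ranged from -0.46 (without HFD replicate 3) to 0.017 (without HFD replicate 2) with 1 library left out and was at 0.032 without CD replicates 1 and 2, where ENSRNOG00000005927 was at 0.10. ENSRNOG00000020867 was at 0.082 with total-count scaling, at -0.096 (without CD replicate 4) to 0.068 (without CD replicate 3) with 1 library left out and at 0.0026 without CD replicates 1 and 2. ENSRNOG00000046650 was at 0.12 with shrunken fold changes. The cause was not tested. For piRNA entries, 0 of those inside the genes were called in any of 10 alternatives. Over all entries there were 0 calls, 28 of 10622 (0.264%) without a filter, 8 of 7818 (0.102%) with the replicate block and 0 to 1 with 1 library left out. The marker list alternatives were not run. The few reads of Anxa1 and ENSRNOG00000023334 limit their ratios.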
